A study of Mus musculus with 49 samples.

Results

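Immature B cells that had lost their immunoglobulin receptor were compared with progenitors that had not yet made one. Cre-Mlo cells came from mice with 3 alleles: B1-8h, a prearranged heavy chain gene that Cre can delete, 3-83(kappa), a prearranged light chain gene, and Mx-Cre, in which a promoter that responds to type I interferon drives Cre. Their bone marrow was expanded in interleukin-7 (IL-7), washed, kept for 2 d without IL-7 but with interferon alpha/beta (IFN), and sorted for low surface IgM. B6-M- cells were C57BL/6 bone marrow cells grown in IL-7 and sorted as B220+ and IgM negative, with no prearranged receptor and no IFN. No CD43 or Kit gate was applied, so the sort did not separate pro-B from pre-B cells. The comparison took every sample titled as one of these groups, 4 Cre-Mlo and 3 B6-M- arrays, 7 of the 49 samples in the series and of the 37 U74Av2 arrays. Receptor deletion, IFN, the time without IL-7 and the receptor transgenes all differed between the groups. The strain, which is not labelled for the Mx-Cre mice, may differ too. These factors cannot be told apart by this contrast. Levels in 4 Ctrl-Mhi arrays are therefore given beside key genes. Those cells carried both receptor alleles but no Cre, had the same 2 d of IFN without IL-7 and kept high surface IgM.

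A B cell progenitor in bone marrow first rearranges its heavy chain genes with the Rag1 and Rag2 recombinase, while terminal transferase (Dntt) adds bases at the joints. The first heavy chain is displayed with a surrogate light chain made of Vpreb1 and Igll1, and IL-7 drives the division of these large cells. Once IL-7 signalling wanes, division stops, recombinase rises again and light chain genes are rearranged, after which surface IgM appears and the genes of the mature B cell, MHC class II among them, are raised.

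Signals are hybridization intensities in arbitrary units, and a log2 difference is the mean of Cre-Mlo minus the mean of B6-M- after values under 20 were raised to 20. The 7 arrays had median signals of 467 to 509 units. Log2 signals correlated across probe sets at 0.947 to 0.956 among Cre-Mlo arrays, 0.953 to 0.96 among B6-M- arrays and 0.901 to 0.927 between the groups. Both groups carried B lineage transcripts: Cd79a, the signalling partner of surface IgM, read 45442, 48792, 53104 and 58506 units in the Cre-Mlo arrays and 54885, 47040.1 and 70120 units in the B6-M- arrays. The groups overlapped, and the 95% interval of the difference ran from -0.56 to 0.28. The T cell receptor chains Cd3e, Cd3g and Cd3d averaged under 103 units in both groups, and markers of other cell types are given at the end.

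Of 9977 probe sets, 1679 (16.8%) differed at an adjusted p under 0.05 (limma). They split almost evenly, with 835 (8.37%) higher and 844 (8.46%) lower in Cre-Mlo cells. These stood for 671 and 707 named genes, and 390 of the higher and 500 of the lower probe sets differed at least 2-fold. The groups did not overlap in 30.5% of all probe sets, and in every called one. For 43.5% of probe sets the 95% interval lay within 2-fold in both directions, a count used below to say where the arrays bound a difference. The median log2 difference over all probe sets was 0.09.

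**Figure D1:**
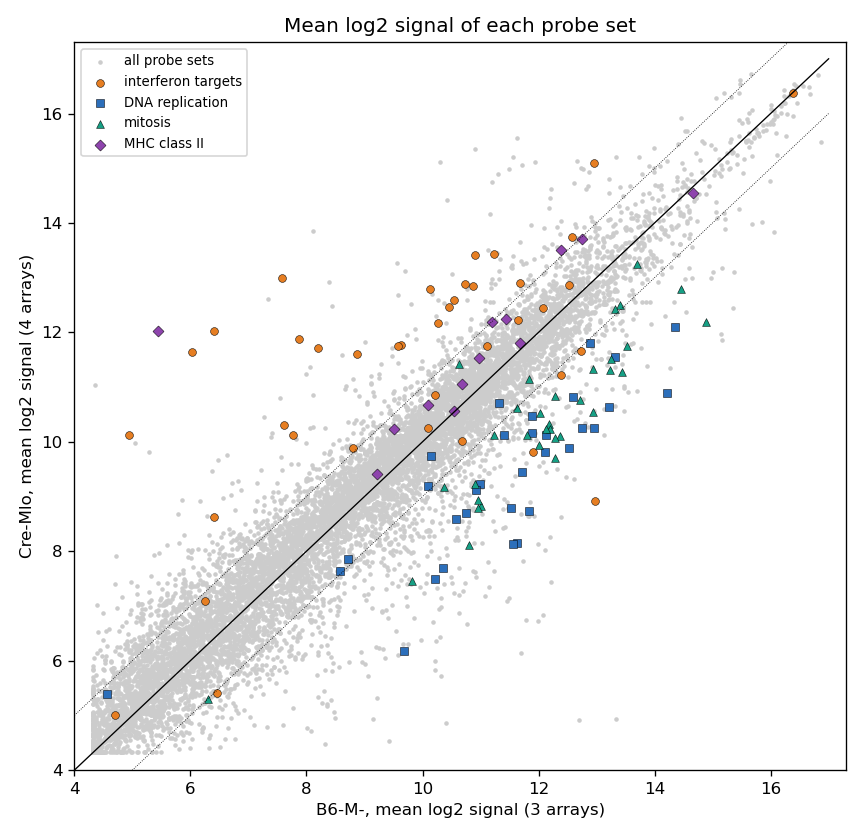
Mean log2 signal of each probe set in the 3 B6-M- arrays (horizontal axis) and the 4 Cre-Mlo arrays (vertical axis), with members of 4 gene lists in colour, a solid line of equality and dotted lines 2-fold away. Interferon targets lie mostly above the lines, DNA replication and mitosis genes below, and most MHC class II genes within them, with H2-Ea far above.

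Recombination genes split into a part that was higher and a part that was lower than in B6-M- cells. Of 7 measured, 3 were higher and 3 lower, with a median log2 difference of -0.47, and 1 was lower without B6-M- replicate 2 or 3 or Cre-Mlo replicate 2. Rag1 read 38024, 37382, 31900.4 and 44561 units in Cre-Mlo arrays and 14376, 14463 and 12017 units in B6-M- arrays. Every Cre-Mlo array lay above every B6-M- array, by 2.79 times in the means (log2 difference 1.47, SE 0.15, adjusted p = 0.00195). In Ctrl-Mhi cells, which kept their receptor, Rag1 ranged only from 1648 to 3174 units.

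Rag2, the partner of Rag1 in the recombinase, gave 3668, 3546, 3400 and 2769.7 units in Cre-Mlo and 1911, 1452 and 1224 units in B6-M- arrays. These did not overlap either (log2 difference 1.15, SE 0.19, adjusted p = 0.00995), and the Ctrl-Mhi mean was 463 units. Xrcc6, the Ku70 subunit that binds broken DNA ends, averaged 12952 ± 1351 units (SD, n = 4) against 8938 ± 619 units (SD, n = 3), a smaller rise (log2 difference 0.53, SE 0.13, adjusted p = 0.0368) that was lost without any of 6 of the 7 arrays (adjusted p up to 0.0975).

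Dntt went the other way. Its brighter probe set read 2656, 2725, 3215 and 2192 units in Cre-Mlo and 11563, 16755 and 17172 units in B6-M- arrays, so that the highest Cre-Mlo array was below the lowest B6-M- array (log2 difference -2.48, SE 0.20, adjusted p = 9.00e-04). Ctrl-Mhi arrays held 48.2 to 168 units, and the difference of Cre-Mlo from them was 4.79 on the log2 scale (adjusted p = 1.66e-04). Cre-Mlo cells thus stood between both other groups for Dntt on this probe set. The second Dntt probe set gave 28.9, 122, 252 and 189.8 units against 3167, 4922 and 5128 units, a log2 difference of -5.24 (adjusted p = 0.00552), and its Ctrl-Mhi mean was 67.7 units (Cre-Mlo against Ctrl-Mhi, adjusted p = 0.48). Hmgb2, a DNA-bending cofactor of the recombinase that is also abundant in dividing cells (log2 difference -1.30, SE 0.26, adjusted p = 0.0185), and Prkdc, the DNA-dependent protein kinase (log2 difference -0.47, SE 0.12, adjusted p = 0.0411), were lower as well, each losing its call in some fits without 1 array.

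Surrogate light chain transcripts were far below the B6-M- level. Vpreb1 read 5056, 5717, 6204 and 5390.1 units in Cre-Mlo and 33754, 40295 and 53537 units in B6-M- arrays. Means differed 7.61-fold with no overlap (log2 difference -2.90, SE 0.18, adjusted p = 4.31e-04). Igll1, the lambda5 chain that pairs with Vpreb1, read 4513, 3775, 4229 and 3554 units against 27685, 36369 and 47806 units (log2 difference -3.18, SE 0.21, adjusted p = 4.46e-04), again without overlap. Ctrl-Mhi arrays ranged from 2260.4 to 2812 units for Vpreb1 and from 1712 to 2632 units for Igll1. Cre-Mlo cells thus differed from these receptor-bearing cells too, by 1.17 (adjusted p = 0.00242) for Vpreb1 and 0.95 (adjusted p = 0.0397) for Igll1 on the log2 scale. Vpreb3, which binds newly made immunoglobulin chains, differed little and in the other direction (log2 difference 0.41, SE 0.10, adjusted p = 0.0391), a call that no fit without 1 array kept.

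**Figure D2:**
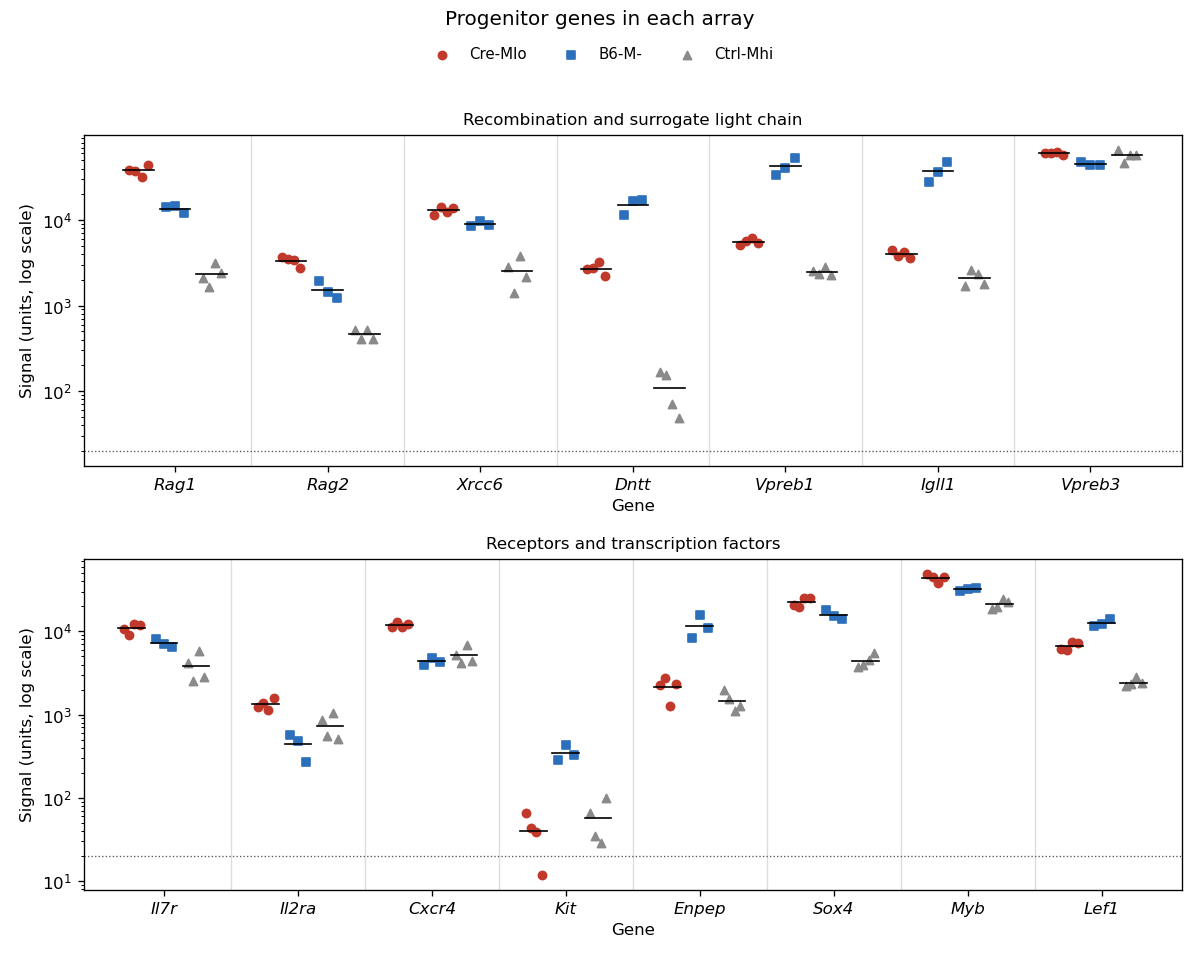
Signal in each array (log axis, units) for progenitor genes in Cre-Mlo (4 arrays), B6-M- (3) and Ctrl-Mhi (4), with a black bar at the arithmetic mean and a dotted line at the floor of 20. Rag1 and Rag2 are highest in Cre-Mlo cells, Dntt lies between the other groups, and Vpreb1, Igll1, Enpep and Kit are low beside B6-M- cells.

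Surface molecules of early B cells were also divided. Of 11 measured, 3 were higher and 3 lower, with a median of -0.23. With the 12 transcription factors of the same stages, described after them, the list of 23 had 8 higher (5 without B6-M- replicate 2 or Cre-Mlo replicate 4) and 4 lower. The median was 0.51, and 12 were within 2-fold, near the 43.5% over all probe sets. Kit, the receptor for stem cell factor on the earliest B cell progenitors, read 66.4, 43.9, 39.0 and 11.8 units in Cre-Mlo and 284, 432 and 331 units in B6-M- arrays. Enpep, the BP-1 aminopeptidase of large pre-B cells, read 2273, 2750.1, 1252 and 2352 units against 8326, 15891 and 11065 units. Neither overlapped (Kit: log2 difference -3.15, SE 0.40, adjusted p = 0.00392, and Enpep: log2 difference -2.45, SE 0.34, adjusted p = 0.00491), and the Ctrl-Mhi means of 57.2 and 1474 units were near those of Cre-Mlo cells. Cd9, a tetraspanin, was lower too (log2 difference -1.23, SE 0.27, adjusted p = 0.0267), a call lost in 6 of the 7 fits without 1 array.

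Il2ra, the CD25 chain that marks small pre-B cells, was in contrast higher, at 1222, 1369, 1122 and 1577 units against 567, 486 and 266 units (log2 difference 1.65, SE 0.28, adjusted p = 0.0112). Cxcr4, the chemokine receptor that holds progenitors in the marrow, rose to 11384, 13024, 11432 and 12353 units from 3942, 4821 and 4320 units (log2 difference 1.47, SE 0.12, adjusted p = 0.00101). All Cre-Mlo arrays lay above all B6-M- arrays for both. Il7r, the IL-7 receptor chain, averaged 11002 ± 1527 units (SD, n = 4) and 7222 ± 795 units (SD, n = 3), a call at the edge of the threshold (log2 difference 0.60, SE 0.16, adjusted p = 0.0464) that 6 of the 7 fits without 1 array lost. Spn, which encodes CD43, and Bst1, the BP-3 antigen, did not pass (intervals -1.44 to -0.10 and -0.73 to 0.18).

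Among the transcription factors of these stages, 5 of 12 were higher and 1 lower. Bcl6, a repressor raised in small pre-B cells, read 1445, 1829, 1586 and 1937 units against 627, 635 and 375 units (log2 difference 1.67, SE 0.23, adjusted p = 0.00486). The Ctrl-Mhi mean of Bcl6 was 2096 units, above the Cre-Mlo mean of 1699 units. Tcf12, an E protein that activates Rag and light chain loci, averaged 15625 and 6550.2 units (log2 difference 1.29, SE 0.19, adjusted p = 0.00656). Irf4, a factor for light chain rearrangement, rose less (log2 difference 0.62, SE 0.14, adjusted p = 0.0263) and lost its call without some arrays. Lef1, a factor that acts on the Rag and surrogate light chain genes of pro-B cells, was the member that fell, from 11644, 12428 and 14056 units in B6-M- to 6129, 6048, 7421 and 7305 units in Cre-Mlo arrays (log2 difference -0.92, SE 0.14, adjusted p = 0.00683). The Ctrl-Mhi mean of Lef1 was lower still, 2428 units, and Cre-Mlo differed from it by 1.47 (adjusted p = 3.10e-05). For Sox4 and Myb, both needed by early progenitors, the intervals of 0.14 to 0.88 and 0.15 to 0.76 kept within 2-fold of B6-M- cells, while Ctrl-Mhi cells averaged 4392 and 21190 units against 22653 and 44111 units in Cre-Mlo cells.

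The factors that fix B cell identity were at or above the B6-M- level: of 10 identity genes, 5 were higher, none lower and 6 within 2-fold (43.5% over all probe sets). Without any 1 array 3 or 4 were higher. Ebf1 averaged 13549.8 ± 1495 units against 6524 ± 473 units (log2 difference 1.05, SE 0.13, adjusted p = 0.00381). Its partner Pax5 read 12110.1, 12939, 7715 and 10666 units against 6438, 6176 and 6237 units (log2 difference 0.76, SE 0.20, adjusted p = 0.0439), a call lost under 8 of the alternatives tried, and its second probe set did not pass. Blnk, the adaptor below the pre-B cell receptor, had an interval of 0.02 to 0.60.

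Genes of the mature B cell gave a mixed picture, with CD20 and CD22 transcripts at the level of progenitors. Of 18 measured, 6 were higher, 1 lower and 11 neither (median 0.24). Ms4a1, which encodes CD20, read 1301, 2559.7, 1569.8 and 839.6 units in Cre-Mlo and 2343, 2421 and 1396 units in B6-M- arrays, against 53302 to 61640.1 units in Ctrl-Mhi arrays. The first pair of groups overlapped (interval -1.43 to 0.51, wider than 2-fold on the low side), and both lay far below the Ctrl-Mhi arrays. Cd22, an inhibitory coreceptor, read 1386, 1487, 1179 and 1182 units against 1168, 1152 and 999 units, with an interval of -0.10 to 0.57 and a Ctrl-Mhi mean of 5609.9 units. Fcgr2b, the inhibitory Fc receptor, was bounded in the same way (-0.11 to 0.59).

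Some members nevertheless stood above progenitors. Cd40, the receptor for T cell help, gave 2098, 2302, 1984 and 1952 units in Cre-Mlo and 459, 355 and 418 units in B6-M- arrays (log2 difference 2.35, SE 0.14, adjusted p = 3.47e-04), and Ctrl-Mhi cells averaged 3240.1 units. Cd83 (log2 difference 1.72, SE 0.37, adjusted p = 0.0232) and the homing receptor Ccr7 (log2 difference 1.03, SE 0.12, adjusted p = 0.00247) were higher too, Cd83 losing its call without some arrays. The list's count of 6 higher fell to between 2 and 4 without any 1 array. Cxcr5, the follicle homing receptor, was the one that fell, to 158, 428, 278 and 165 units from 1402, 1209.5 and 1160.3 units (log2 difference -2.41, SE 0.37, adjusted p = 0.00742). It thus lay below both IgM-negative progenitors and Ctrl-Mhi cells, which averaged 1594 units.

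Receptor signalling genes gave 4 higher and 6 lower of 24, with a median of -0.21. Of the 24, 12 were within 2-fold, near the 43.5% over all probe sets. Ptpn6, the phosphatase SHP-1 that restrains receptor signals, read 611, 1041, 661 and 600.1 units in Cre-Mlo and 1681, 1871 and 1534 units in B6-M- arrays (log2 difference -1.25, SE 0.22, adjusted p = 0.0127). Cre-Mlo arrays were all lower than B6-M- arrays, and the Ctrl-Mhi mean was 12321 units. The call was lost without B6-M- replicate 2 (adjusted p = 0.0504). Pik3cd, the p110delta lipid kinase, averaged 5295 against 13345 units (log2 difference -1.33, SE 0.19, adjusted p = 0.00539), and Inpp5d, the SHIP phosphatase that opposes it, was lower as well (log2 difference -0.81, SE 0.13, adjusted p = 0.00819). Plcg2, the phospholipase of the receptor pathway, was lower (log2 difference -0.66, SE 0.12, adjusted p = 0.0131) and Itpr2, a receptor for its product inositol trisphosphate, higher (log2 difference 1.82, SE 0.16, adjusted p = 0.0011), although only 2 of 4 Itpr2 probe sets passed. The kinases Syk and Btk were bounded within 2-fold (-0.18 to 0.48 and -0.59 to -0.03).

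MHC class II genes were at or somewhat above the progenitor level. Of 13 measured, 4 were higher and none lower than in B6-M- cells, and 12 of the 13 differences were positive, with a median of 0.57. Cd74, the invariant chain, read 29365, 23196, 16747 and 29261 units against 30654, 22566 and 24993 units, an overlap with an interval of -0.68 to 0.47, while Ctrl-Mhi arrays held 75157 to 99128 units. Ciita, the class II master activator, was equally bounded (-0.20 to 0.61), with a Ctrl-Mhi mean of 1576 units. H2-Aa and H2-Ab1, the chains of I-A, averaged 5212 and 3052 units in Cre-Mlo cells, 2890.1 and 2029 units in B6-M- cells and 27389 and 11438 units in Ctrl-Mhi cells, and neither passed against B6-M-.

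H2-Ea, the alpha chain of I-E, was the exception and the largest rise among the named genes. It read 5003, 4259, 5439 and 2668 units in Cre-Mlo arrays and 86.7, 32.9 and 28.6 units in B6-M- arrays (log2 difference 6.60, SE 0.45, adjusted p = 5.10e-04). C57BL/6 mice are known to carry an H2-Ea allele that is not transcribed, so this probe set also separates strains. The labels do not give the strain of the Mx-Cre mice. The other members that passed were H2-Eb1 (log2 difference 0.98, SE 0.26, adjusted p = 0.0466, lost under 9 of the alternatives), H2-Ob, a regulator of peptide loading (log2 difference 1.11, SE 0.16, adjusted p = 0.00535), and the protease Ctss (log2 difference 0.95, SE 0.15, adjusted p = 0.00844). The Ctrl-Mhi mean of H2-Ob was 12246 units against 11609.8 units in Cre-Mlo cells, a difference that did not pass (log2 difference -0.07, adjusted p = 0.871).

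**Figure D3:**
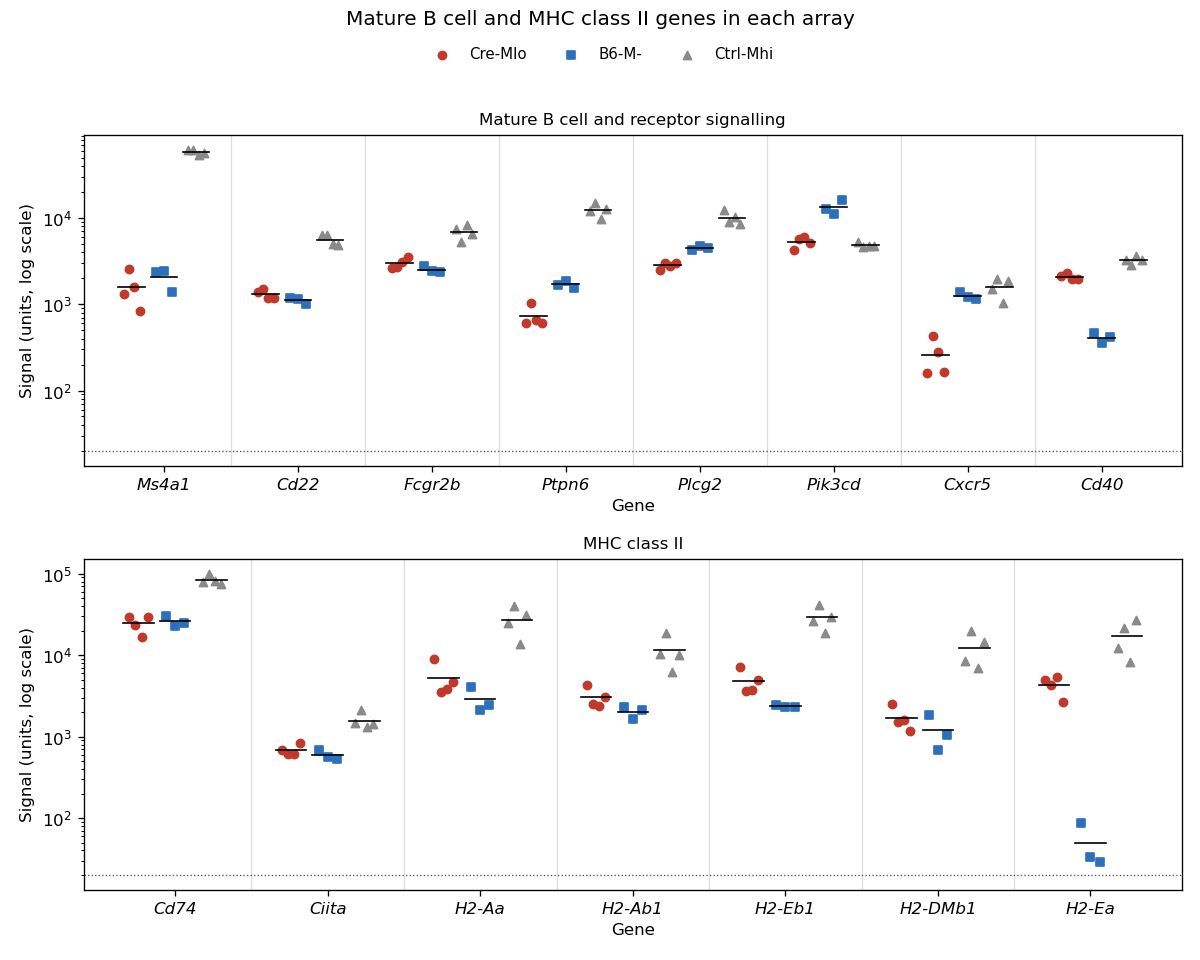
Signal in each array (log axis, units) for mature B cell, receptor signalling and MHC class II genes in Cre-Mlo (4 arrays), B6-M- (3) and Ctrl-Mhi (4), with a black bar at the arithmetic mean and a dotted line at the floor of 20. Ms4a1, Cd22, Ptpn6 and most class II genes are low in Cre-Mlo and B6-M- cells and high in Ctrl-Mhi cells, while H2-Ea is near the floor only in B6-M- cells.

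Interferon targets made up the strongest group that was higher in Cre-Mlo cells: 25 of 39 measured were higher, 3 lower, and the median was 1.97. Ifit3, an antiviral protein that binds foreign RNA complexes, read 2902, 4839.9, 4923 and 4424 units in Cre-Mlo and 29.4, 197 and 106 units in B6-M- arrays (log2 difference 5.62, SE 0.63, adjusted p = 0.00245). Mx1, the antiviral GTPase whose promoter drives Cre in these mice, read 2487, 3706, 3366 and 3316 units against 41.5, 69.7 and 95.1 units (log2 difference 5.61, SE 0.30, adjusted p = 2.43e-04). Neither overlapped between the groups, and Ctrl-Mhi cells, with the same IFN, averaged 3706 and 5135 units.

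Isg15, a ubiquitin-like modifier, read 5884, 7165, 7366 and 8235 units against 1239, 1391 and 811 units (log2 difference 2.67, SE 0.22, adjusted p = 0.00101), and Usp18, the protease that removes it, averaged 8437 against 269 units (log2 difference 5.42, SE 0.68, adjusted p = 0.00354). Irf7, a factor that amplifies the response, gave 2376, 4231, 4712 and 4274 units against 125, 286 and 353 units (log2 difference 4.02, SE 0.42, adjusted p = 0.00195). Cre-Mlo replicate 1 was the lowest Cre-Mlo array for Ifit3, Ifit1, Mx1, Isg15, Usp18 and Irf7, yet above every B6-M- array. Irf9, the DNA-binding part of the interferon-activated complex, rose less (log2 difference 1.21, SE 0.12, adjusted p = 0.00175). By role, 5 of 9 signalling and factor genes, 14 of 17 antiviral effectors and 6 of 13 GTPases and p200 family genes were higher, and all 3 that fell were in the last of these sets.

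Socs1, the inhibitor of interferon and IL-7 receptor signals, read 13535, 17243, 9719.8 and 15787 units against 5811, 5079.6 and 7678 units (log2 difference 1.17, SE 0.25, adjusted p = 0.0223). Its Ctrl-Mhi mean, with the same IFN, was 4445 units, from which Cre-Mlo differed by 1.65 (adjusted p = 6.08e-04). The call against B6-M- was lost without some single arrays (adjusted p up to 0.0763).

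Guanylate-binding proteins, which interferon usually raises, were the members that went against the rest. Gbp7 read 334, 483, 493 and 675 units in Cre-Mlo and 7888, 9906 and 6710.4 units in B6-M- arrays, 16.5 times more in the latter (log2 difference -4.07, SE 0.26, adjusted p = 4.43e-04). Gbp2 read 698, 668, 1066 and 1314 units against 4317, 3811 and 3408 units (log2 difference -2.09, SE 0.27, adjusted p = 0.00416), and Gbp3 averaged 3489.7 against 6807 units without passing (adjusted p = 0.0923). For all 3 the Cre-Mlo arrays lay below the B6-M- arrays, and the Ctrl-Mhi means of 1296, 1063 and 3625 units were also below them. Ifi27 fell by a smaller amount (log2 difference -1.17, SE 0.22, adjusted p = 0.0148), a call lost without B6-M- replicate 2 (adjusted p = 0.0568), and the chemokine gene Cxcl10 was low in all 7 arrays, with 50.8 and 92.2 units.

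The response motif was found before genes that rose and before genes that fell. The interferon-stimulated response element holds a pair of GAAA blocks with 2 bases between them. On either strand this motif occurred in 3.44% of 32851 promoter windows of RefSeq (GRCm38.p6, 250 bases before to 50 after the start), and in at least 1 window of 3.99% of 27025 genes. Members are counted as genes. It occurred in 10 of the 20 higher members that have a window, in both lower members that have one (Gbp2 and Gbp7), and in 4 of 10 that did not pass. Stretches before the start are shown for 4 members that rose and both that fell, 5′ to 3′ along the gene, with the motif in capitals (as TTTC blocks where it lies on the opposite strand) and overlapping matches joined. They lie at chr19:34583353-34583436 (plus strand, Ifit3), chr19:34640765-34640833 (plus, Ifit1), chr4:156200855-156200916 (minus, Isg15), chr16:10785584-10785639 (minus, Socs1), chr3:142530263-142530312 (plus, Gbp7) and chr3:142620584-142620633 (plus, Gbp2).
Ifit3: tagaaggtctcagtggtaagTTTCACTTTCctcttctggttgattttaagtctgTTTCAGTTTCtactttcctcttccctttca
Ifit1: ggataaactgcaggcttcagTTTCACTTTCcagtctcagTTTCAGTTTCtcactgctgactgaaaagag
Isg15: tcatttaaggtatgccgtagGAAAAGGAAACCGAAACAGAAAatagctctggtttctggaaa
Socs1: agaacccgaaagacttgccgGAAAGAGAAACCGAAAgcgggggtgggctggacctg
Gbp7: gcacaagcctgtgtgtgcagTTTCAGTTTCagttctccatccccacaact
Gbp2: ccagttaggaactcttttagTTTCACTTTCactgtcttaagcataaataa
Ifit3 and Ifit1 each hold 2 separate copies, Isg15 has 3 overlapping ones and Socs1 2, and each Gbp gene has 1, at 53 to 44 bases before the start in Gbp7 and 59 to 50 in Gbp2. A match describes these letters and is not evidence that a factor binds there.

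MHC class I and antigen processing genes were higher in 5 of 14 and lower in none (median 0.37). H2-K1 and H2-D1, classical class I heavy chains whose probe sets can share targets, averaged 108338 against 51768 units (log2 difference 1.06, SE 0.10, adjusted p = 0.00152) and 95744 against 45503 units (log2 difference 1.07, SE 0.12, adjusted p = 0.00242). Tapbp, which loads peptide, was 2.53 times the B6-M- mean (log2 difference 1.34, SE 0.11, adjusted p = 0.00102), and the peptide transporter Tap1 1.94 times (log2 difference 0.95, SE 0.11, adjusted p = 0.00278). Ctrl-Mhi cells, with the same IFN, averaged 99300 units for H2-K1 and 82412 for H2-D1. Their means were 15601 units for Tapbp and 18040 for Tap1, against 16171 and 15654 units in Cre-Mlo cells. Psmb9, an immunoproteasome subunit, and B2m were bounded within 2-fold (-0.23 to 0.50 and -0.03 to 0.66).

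**Figure D4:**
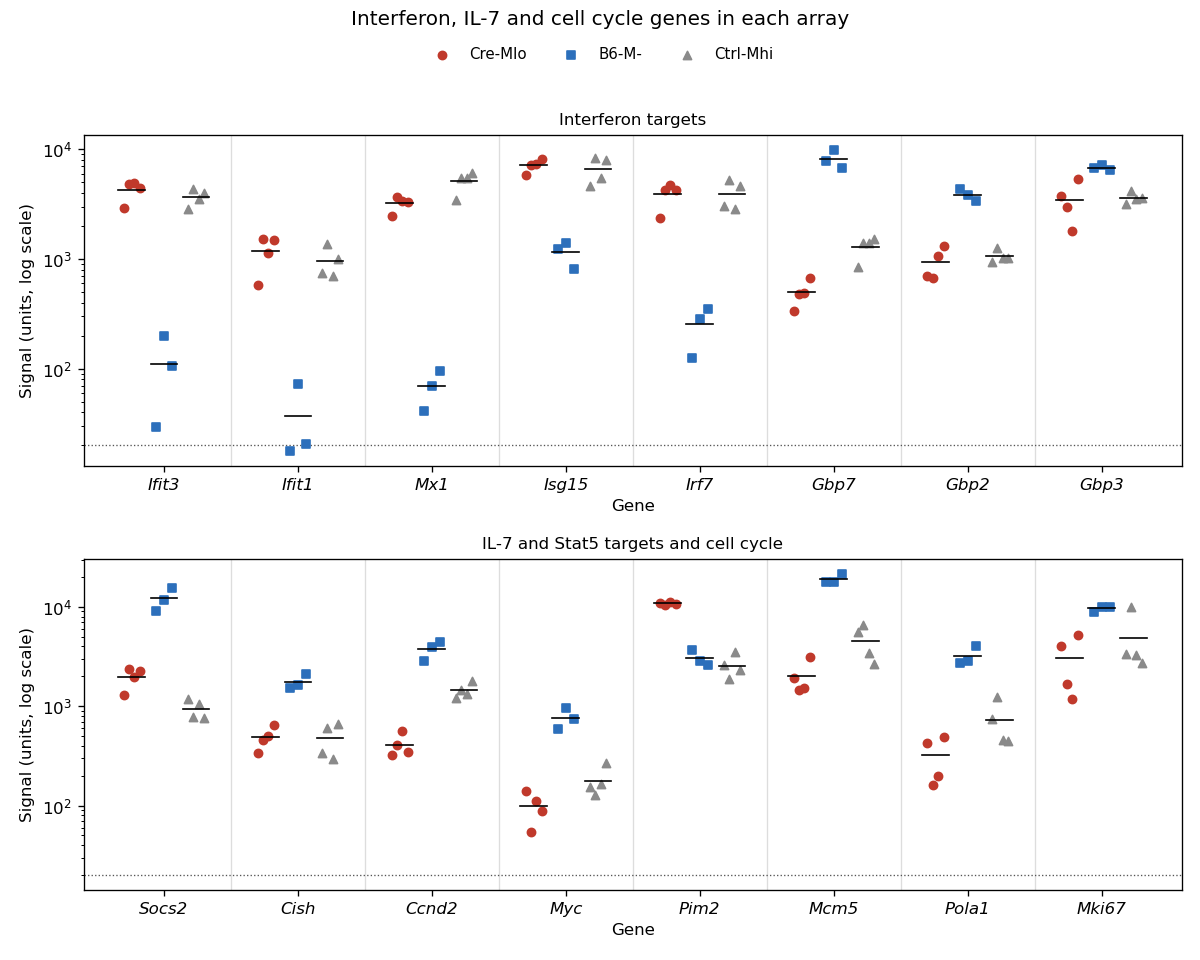
Signal in each array (log axis, units) for interferon targets, IL-7 and Stat5 targets and cell cycle genes in Cre-Mlo (4 arrays), B6-M- (3) and Ctrl-Mhi (4), with a black bar at the arithmetic mean and a dotted line at the floor of 20. Cre-Mlo and Ctrl-Mhi arrays overlap for every interferon target drawn except Gbp7, which is lower in Cre-Mlo cells, and for Pim2 the Cre-Mlo arrays stand above both others.

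Targets of IL-7 and its factor Stat5 were lower for 6 of 15 and higher for 2 (median -0.25), and every fit without 1 array also counted 6 lower, with 1 or 2 higher (1 without B6-M- replicate 1 or 2 or Cre-Mlo replicate 2 or 3). Socs2, a feedback inhibitor, read 1304, 2365, 1982 and 2238 units in Cre-Mlo and 9099.7, 11836 and 15592 units in B6-M- arrays (log2 difference -2.63, SE 0.28, adjusted p = 0.00203). Cish, another such inhibitor, read 335, 457, 507 and 655 units against 1510.4, 1626 and 2098 units (log2 difference -1.86, SE 0.25, adjusted p = 0.00456), and Socs3 averaged 74.3 against 665 units (log2 difference -3.30, SE 0.47, adjusted p = 0.00586). No Cre-Mlo array reached a B6-M- array for any of these. Ccnd2, the cyclin that couples growth signals to division, was 9.12 times higher in B6-M- cells (log2 difference -3.20, SE 0.25, adjusted p = 8.27e-04).

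Myc, the growth factor-responsive transcription factor, read 140.3, 53.7, 112 and 88.5 units in Cre-Mlo and 593, 953 and 741 units in B6-M- arrays (log2 difference -3.01, SE 0.35, adjusted p = 0.00284), without overlap. Ctrl-Mhi cells, also without IL-7, averaged 947 units for Socs2, 475 for Cish, 1443 for Ccnd2 and 179 for Myc. In the opposite direction, the survival kinase gene Pim2 read 10823, 10524, 11330.5 and 10740.2 units against 3724, 2838 and 2602 units (log2 difference 1.85, SE 0.15, adjusted p = 8.94e-04). It stood above Ctrl-Mhi cells as well, by 2.11 (adjusted p = 5.90e-05). The cell cycle inhibitor Cdkn1b rose too (log2 difference 1.29, SE 0.29, adjusted p = 0.0277), though not in every fit without 1 array. Pim1 and the brightest of 3 Bcl2 probe sets were bounded within 2-fold (-0.64 to 0.13 and -0.29 to 0.52), while another Bcl2 probe set was lower (log2 difference -1.92).

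DNA replication genes were lower almost throughout: 28 of 32 fell, none rose, and the median was -2.03. Mcm5, a subunit of the replicative helicase, read 1909, 1448, 1542 and 3120.3 units in Cre-Mlo and 17899, 17608 and 21416 units in B6-M- arrays, 9.46 times more in B6-M- cells (log2 difference -3.31, SE 0.28, adjusted p = 0.0011). Pola1, the polymerase subunit that starts each strand, read 426, 161, 196 and 494 units against 2748, 2878 and 4035 units (log2 difference -3.47, SE 0.45, adjusted p = 0.00385). Pcna, the polymerase clamp, averaged 4434 ± 492 against 21398 ± 5766 units (log2 difference -2.24, SE 0.21, adjusted p = 0.0013). None of these overlapped. Without any 1 array the count was 23 to 27. Ctrl-Mhi cells averaged 4581 units for Mcm5 and 722 for Pola1. In GFPneg cells these means were 15554 and 2936 units. GFPneg cells were IgM-positive cells from another line, with HEL-Ig and Rag2-GFP transgenes, kept for 1 d without IL-7 and without IFN.

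Mitosis genes were lower for 26 of 34 and higher for none, with a median of -1.82. Kif11, a spindle motor, read 1029, 450.2, 621 and 1677 units against 5276, 4761 and 4954 units (log2 difference -2.58, SE 0.44, adjusted p = 0.0109). Stmn1, a regulator of microtubules, was lower on its brighter probe set (log2 difference -2.70, SE 0.47, adjusted p = 0.0113) but not on the other. Among Cre-Mlo arrays, replicates 1 and 4 were the highest for Kif11, Stmn1, Top2a, Cdk1 and Mki67. Mki67, the proliferation antigen Ki-67, read 3999, 1671, 1183 and 5251 units against 8906, 10088 and 10013 units, without overlap but without passing (adjusted p = 0.0555). The count of lower members fell to between 10 and 15 without B6-M- replicate 1 (12), 2 (14) or 3 (10) or without Cre-Mlo replicate 2 (15), and reached 29 at most.

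Regulators of G1 were lower for 11 of 19 and higher for 1 (median -0.82), and between 7 and 10 were lower without any 1 array. The higher member was Cdkn1b, and none was higher without B6-M- replicate 1 or 2 or Cre-Mlo replicate 1, 2 or 3. E2f1, the activator of replication genes, read 27.8, 25.6, 23.9 and 32.9 units against 119.5, 374 and 385 units (log2 difference -3.24, SE 0.43, adjusted p = 0.00434), close to the floor in Cre-Mlo cells. Cdkn1a, the p21 inhibitor, was lower as well (log2 difference -1.13, SE 0.14, adjusted p = 0.00354). It was also the only 1 of 10 p53 targets that passed, a count near the 8.46% of all probe sets that were lower.

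Biosynthetic genes followed. Of 23 Myc targets and ribosome assembly genes, 14 were lower and 2 higher (median -1.02), and 11 to 14 were lower and 1 or 2 higher without any 1 array. Bcat1, an enzyme of branched-chain amino acids, read 173, 358, 179 and 423 units against 4090.4, 4522 and 4644 units (log2 difference -4.08, SE 0.36, adjusted p = 0.00116), and Ncl, the nucleolar protein nucleolin, 8318, 8020.1, 8096 and 7923 units against 20873, 24688 and 25524 units (log2 difference -1.55, SE 0.12, adjusted p = 7.19e-04). For serine and one-carbon metabolism, Psat1 (log2 difference -2.57, SE 0.22, adjusted p = 0.00102) and Mthfd2 (log2 difference -2.47, SE 0.27, adjusted p = 0.00235) fell, 2 of the 5 lower genes among 11 of amino acid supply, none of which rose. Cad, which starts pyrimidine synthesis, was 5.10 times higher in B6-M- cells (log2 difference -2.46, SE 0.40, adjusted p = 0.00905).

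Glycolysis genes gave 4 lower of 14 and none higher (median -0.99), a count of lower members that changed whichever array was left out. Ldha, lactate dehydrogenase, read 5271, 6196, 7312 and 24742 units in Cre-Mlo and 43206, 33498 and 51668 units in B6-M- arrays (log2 difference -2.26, SE 0.55, adjusted p = 0.0362). Cre-Mlo replicate 4 was several times above the other Cre-Mlo arrays, and was highest for Pgk1 and Pkm as well. Without it 7 members were lower, and without any other array only 1, with Ldha itself no longer called. Heat shock genes were lower for 5 of 12 and higher for 1 (3 to 5 lower and at most 1 higher without any 1 array), with the chaperone Hsp90aa1 at 10954 against 21673 units (log2 difference -0.99, SE 0.13, adjusted p = 0.00384). Cholesterol synthesis genes were lower for 4 of 14 (2 to 4 without any 1 array).

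NF-kB targets were higher for 10 of 19 and lower for 1, with a median of 1.11, and 8 to 12 were higher without any 1 array. Nfkbia, the inhibitor that NF-kB itself induces, read 25211, 27272, 23638 and 27581 units in Cre-Mlo and 12536, 9598 and 10503 units in B6-M- arrays (log2 difference 1.26, SE 0.14, adjusted p = 0.00228). Tnfaip3, another induced inhibitor (A20), read 1280.5, 1398, 1399.9 and 1588 units against 537, 478 and 641 units (log2 difference 1.37, SE 0.15, adjusted p = 0.00216). All Cre-Mlo arrays exceeded all B6-M- arrays, and the Ctrl-Mhi means were 10920.3 and 468 units, from which Cre-Mlo cells differed by 1.25 and 1.67 (adjusted p = 2.28e-04 and 0.00489). Ltb, lymphotoxin beta, averaged 12032 against 2288 units (log2 difference 2.38, SE 0.28, adjusted p = 0.00284) but 14312 units in Ctrl-Mhi cells. Bcl3 (log2 difference 2.00, SE 0.31, adjusted p = 0.00774) and Traf6 (log2 difference 1.42, SE 0.11, adjusted p = 7.57e-04) were higher too, and Cd40, Cd83 and Cxcr5 of the mature list are counted here again.

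Targets of FoxO factors, which act when IL-7 and receptor signals through PI3-kinase are low, were higher for 7 of 20 and lower for none (median 0.40). Rag1, Rag2, Il7r, Bcl6 and Cdkn1b, described above, are among them, with Btg1, a growth inhibitor (log2 difference 1.20, SE 0.13, adjusted p = 0.00235), and Ccng2, an atypical cyclin (log2 difference 0.84, SE 0.18, adjusted p = 0.0233). Without any 1 array 4 or 5 passed, and 6 of those fits lost Ccng2. Ctrl-Mhi means of Btg1, Ccng2 and Bcl6 (18054, 15837 and 2096 units) were near or above those of Cre-Mlo cells (17678, 16956 and 1699 units). Those of Rag1, Rag2, Il7r and Cdkn1b were below. Irs2, an insulin receptor substrate, averaged 707 units in Cre-Mlo, 546 in B6-M- and 108 in Ctrl-Mhi cells (interval against B6-M-, -0.48 to 1.46).

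Jun, an immediate early factor, read 3338, 4882, 3522 and 3049 units in Cre-Mlo and 1616, 1563 and 1669.6 units in B6-M- arrays (log2 difference 1.17, SE 0.18, adjusted p = 0.0076), with no overlap and with 319.6 units in Ctrl-Mhi cells. Of 22 immediate early genes, 2 were higher and 2 lower, among them Myc, and without any 1 array 1 to 3 were higher and 1 or 2 lower. Both counts are near the shares over all probe sets, 8.37% higher and 8.46% lower. Prdm1, the Blimp-1 repressor of the plasma cell, was 2.34 times the B6-M- mean at a low level (log2 difference 1.29, SE 0.29, adjusted p = 0.0277), whereas Xbp1, the secretory factor, was lower (log2 difference -0.78, SE 0.20, adjusted p = 0.0461). Both lost their calls without some arrays, and the plasma cell list of 10 went from 3 higher and 2 lower to between 1 and 3 higher and at most 1 lower. The Bcl2 family of survival genes gave no higher and 1 lower of 9, again near the shares over all probe sets. None was lower without B6-M- replicate 2 or Cre-Mlo replicate 1, 2 or 3, and Mcl1 was bounded at -0.04 to 0.66.

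**Figure D5:**
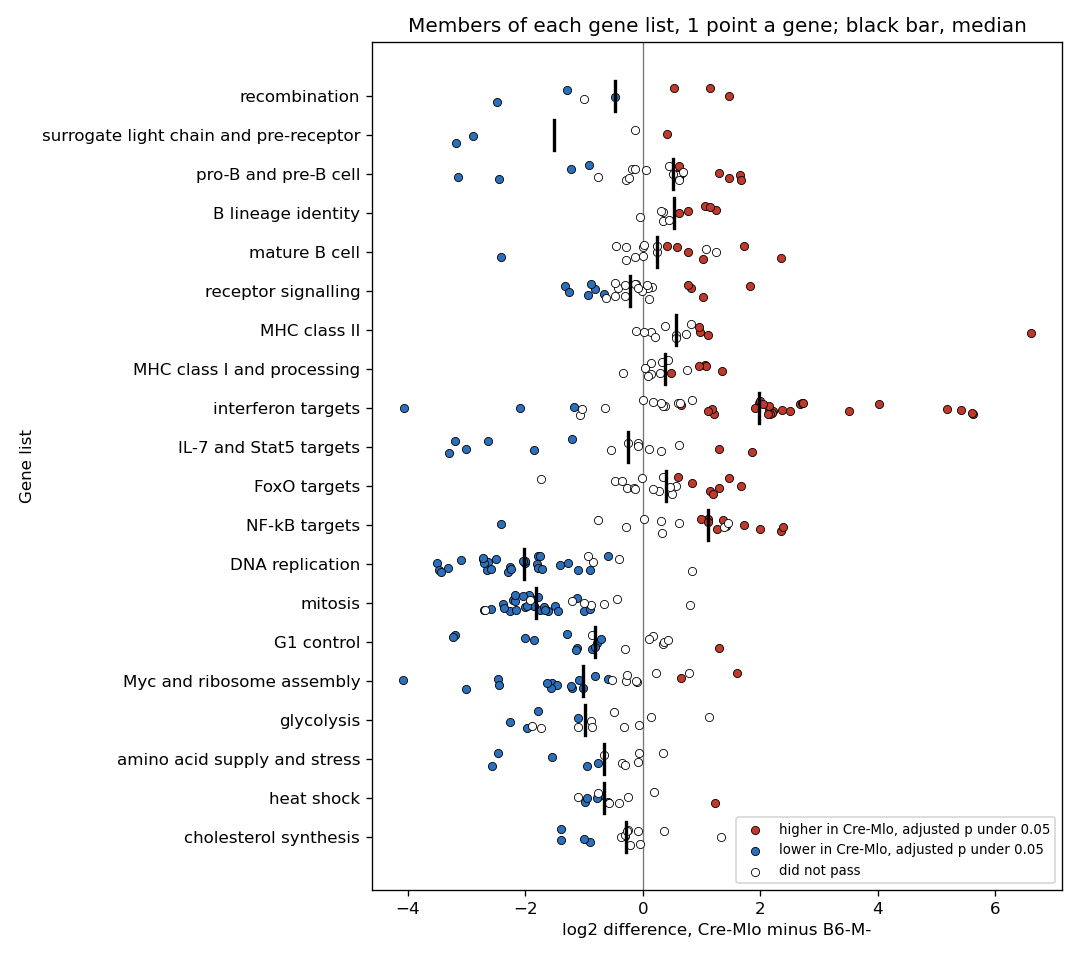
Log2 difference (Cre-Mlo minus B6-M-) of each measured gene in 20 gene lists, 1 point a gene, filled where the adjusted p was under 0.05, with a black bar at the median. Interferon and NF-kB targets lie mostly to the right of 0, DNA replication, mitosis and Myc targets to the left, and recombination, surrogate light chain and progenitor genes on both sides.

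Genes that the study had named for their difference between Cre-Mlo and Ctrl-Mhi cells were counted against B6-M- cells too. They were chosen on these Cre-Mlo arrays, so their direction here is not independent evidence. Of 22 named as higher in Cre-Mlo, 8 were also above B6-M-, 4 below and 7 bounded within 2-fold (median 0.46), and without any 1 array 3 to 6 were above. Of 24 named as lower in Cre-Mlo, 1 was above B6-M-, 4 below and 15 bounded within 2-fold (median -0.06). None was above without B6-M- replicate 2 or Cre-Mlo replicate 1, 2 or 3. Over all probe sets 43.5% were bounded within 2-fold.

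The largest falls were led by Myl10, a myosin light chain gene, which read 52.7, 27.0, 16.2 and 30.1 units in Cre-Mlo and 7461, 10205 and 14721 units in B6-M- arrays (log2 difference -8.42, SE 0.38, adjusted p = 1.35e-04). Cre-Mlo arrays were near the floor, as were the Ctrl-Mhi (97.8 units) and freshly sorted BALB/c pre-B cell (87.9 units) means. The paper describes extra rounds of RNA amplification for the BALB/c cells, so their levels compare less directly. Trgv4, a T cell receptor gamma variable segment, averaged 90.4 against 3326 units (log2 difference -5.55, SE 0.70, adjusted p = 0.00368). Prkch, a protein kinase C (log2 difference -5.54, SE 0.25, adjusted p = 1.35e-04), Gldc, the glycine decarboxylase (log2 difference -5.27, SE 0.32, adjusted p = 3.98e-04), and Sema4a, a semaphorin (log2 difference -4.78, SE 0.21, adjusted p = 1.35e-04), followed. Pole2, a subunit of the replicative polymerase epsilon, read 16.2, 10.4, 13.6 and 35.9 units against 677, 629.8 and 758 units (log2 difference -4.89, SE 0.24, adjusted p = 1.98e-04). The calcium-binding S100a6 (log2 difference -4.60, SE 0.66, adjusted p = 0.00597), the thioesterase Acot7 (log2 difference -4.39, SE 0.26, adjusted p = 3.76e-04) and the GTPase Gimap4 (log2 difference -4.11, SE 0.55, adjusted p = 0.0044) completed the named falls outside the immunoglobulin loci.

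Besides H2-Ea and the interferon targets, Ctse, the protease cathepsin E, gave 15765, 14599.9, 15193 and 13729 units in Cre-Mlo and 251, 301 and 280.1 units in B6-M- arrays on 1 probe set (log2 difference 5.74, SE 0.12, adjusted p = 1.33e-05). Neither of the other 2 Ctse probe sets passed (down to -0.68), so the probe sets disagree. A second H2-K1 probe set, dimmer than the first, was among the largest rises too, at 15712, 10797, 4748 and 4392 units against 344, 435 and 250.3 units (log2 difference 4.53). Pdxdc1 did likewise, at 5.28 on 1 probe set and 0.33 on the other. The Pdxdc1 probe set that rose averaged 6736 units in freshly sorted BALB/c pre-B cells, 3286 in Ctrl-Mhi and 97.2 in GFPneg cells. The Ctse probe set that rose averaged 14003 units in the BALB/c cells and 1300 units (45.8 to 3779) in GFPneg cells. The BALB/c RNA was amplified in extra rounds, as said above. Whether these levels follow the mouse line was not tested. Cmah, which makes the sialic acid Neu5Gc, averaged 913 against 40.6 units (log2 difference 4.54, SE 0.28, adjusted p = 4.31e-04), and the transcript A530040E14Rik 5752 against 355 units (log2 difference 4.03, SE 0.20, adjusted p = 1.98e-04). The Ctrl-Mhi means of Ctse and Cmah, 12003 and 1018 units, were near those of Cre-Mlo cells.

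Many immunoglobulin probe sets differed, mostly downward for the heavy chain and upward for kappa. They share sequence across many segments, so single names are uncertain. Of 38 heavy chain probe sets 14 were lower and 1 higher, and of 36 kappa probe sets 15 were higher and 2 lower. Igkv4-68 read 32287, 37245, 34931 and 36904 units in Cre-Mlo and 1705, 1083 and 1091 units in B6-M- arrays (log2 difference 4.80, SE 0.19, adjusted p = 1.11e-04), and Igkv4-91 averaged 42449.8 against 2076 units (log2 difference 4.46, SE 0.33, adjusted p = 7.14e-04). Ctrl-Mhi cells, which carry the same kappa gene, averaged 44976 and 66096 units. A probe set named for lambda constant and variable genes (Iglc1 and Iglv1) was higher too, at 20967, 21922, 16504 and 15190 units against 2609, 2388 and 1947 units (log2 difference 3.00, adjusted p = 4.31e-04), and Cre-Mlo exceeded Ctrl-Mhi cells (8089 units) by 1.22 (adjusted p = 0.0077).

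Of the 16 probe sets named Ighm, 4 were lower and none higher. The brightest averaged 84393 ± 4547 units in Cre-Mlo and 105906 ± 15395 units in B6-M- cells (interval -0.65 to 0.01), and another 68243 against 68654 units (interval -0.35 to 0.32). The signal of both was thus bounded within 2-fold between the groups. In contrast, a probe set named for Ighv1-53, Ighv1-72 and Ighm read 817, 745, 1076 and 975 units against 4374, 3238 and 2779 units (log2 difference -1.93, adjusted p = 0.00228), and 49418 to 66046 units in Ctrl-Mhi arrays, which keep the prearranged heavy chain. Ighg3 (log2 difference -5.04, SE 1.11, adjusted p = 0.0256, lost without some arrays) and Igh-VS107 (log2 difference -4.21, SE 0.37, adjusted p = 0.00114) were among the largest falls, and in each some other probe sets of the gene did not pass.

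Few markers of other cell types differed, but over all probe sets only 8.37% were higher and 8.46% lower. Small counts here thus do not show whether such cells were absent. Fewer cells of a type cannot be told apart from less RNA per cell in sorted bulk samples. Of 12 T cell markers, Thy1, known also on early lymphoid progenitors in culture, was lower (log2 difference -3.76, SE 0.41, adjusted p = 0.00229) and Cd2, which B cell progenitors also carry, higher (log2 difference 1.69, SE 0.30, adjusted p = 0.0126), while the other 10 did not pass. Among these the highest was Lat, at 1120 and 1021 units, followed by Cd4, at 741 and 537 units, and Cd3e averaged 91.9 and 89 units. The summed signal of all 12 was 11332 to 14971 units in Cre-Mlo and 6775 to 8454 units in B6-M- arrays. Cd2, with means of 9769 and 3178 units, was the largest part of it. None of 9 NK cell or 12 mast cell, basophil and eosinophil markers passed. One of 21 myeloid markers, Csf2rb, a cytokine receptor chain, was lower (log2 difference -3.80, SE 0.57, adjusted p = 0.00664), with 1683, 1244 and 5503 units in the B6-M- arrays. Without B6-M- replicate 2 there were 3 lower myeloid markers, and the summed signals overlapped (6061 to 8419 and 6776 to 12686 units). Of 8 erythroid markers Car2 was lower (log2 difference -2.17, SE 0.22, adjusted p = 0.00181), and the sums of 3983 to 5334 and 8251 to 10431 units did not overlap. Car2, with means of 1520 and 6806 units, was the largest part of these sums, and the other 7 markers did not pass. Fn1 was the only 1 of 11 stromal markers that passed (log2 difference -1.48, SE 0.35, adjusted p = 0.0336), with overlapping sums, and 5 of the 7 fits without 1 array lost it (adjusted p up to 0.108). Of 4 plasmacytoid dendritic cell markers, Irf7, Tlr7 (log2 difference 2.41, SE 0.22, adjusted p = 0.00121) and Spib (log2 difference 0.61, SE 0.11, adjusted p = 0.0151, lost without B6-M- replicate 2) were higher, and all of these are also expressed by B cells or induced by IFN. What part such cells had in any result was not tested.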

How the data were processed

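RNA of sorted cells was hybridized to Affymetrix U74Av2 arrays. The authors calculated a hybridization intensity per probe set with Microarray Suite 5.0, applied a mask file, scaled each array to 1500 units, and deposited the values on a linear scale without detection p-values. Groups were read from sample titles. Signals under 20 were raised to 20 and taken to log2. A model of the 7 arrays was fitted in R 4.3.3 by limma 3.58.1 (two-sided moderated test, Benjamini-Hochberg over 9977 probe sets, threshold 0.05). Values against Ctrl-Mhi came from one fit of the Ctrl-Mhi, Cre-Mhi and Cre-Mlo arrays. Both comparisons share the Cre-Mlo arrays.

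Of the probe sets, 8724 matched 1 gene (8710 renamed through Entrez), 346 several and 907 none. The probe set with the highest mean log2 signal stood for a gene. Named genes are the 12 largest rises and 12 largest falls (called, not overlapping, mean of at least 200 units), leading members of 33 gene lists, and a fixed set. The genes, lists and the comparison itself were chosen with earlier results of these data known. The paper reports independent sorts for the Cre-Mlo and Ctrl-Mhi groups and repeated sorts for the others. Neither it nor the labels say that these replicates came from separate mice. The p-values thus measure the spread between arrays, whose number limits the precision. Scan dates and lots were not used here. The fit was tested on simulated data with known changes. Alternatives changed the floor (100), the offset (log2 of signal plus 16), quantile or median scaling, a filter at 200 units, a spread shared over 15 arrays, an intensity trend, a replicate block, the methods' t-test on linear signals, and each array left out.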

Additional observations from a re-analysis of the deposited data

Results flagged for a closer look

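Among the 4 Cre-Mlo arrays, 1 array stood far from the other 3 for 6 of the 139 probe sets described above, and chance alone flags about 1 in 20 such groups. Groups of 3 arrays were not tested. Cre-Mlo replicate 1 was the high array for Gimap4 (289.1 units) and the low array for Usp18 (5281 units) and Irf7 (2376 units). Cre-Mlo replicate 3 was the high array for Cd9 (1104 units) and the low array for Cad (144.9 units). Cre-Mlo replicate 4 was the high array for Pole2 (35.9 units), where the other 3 were all at or below the floor of 20. In each of these 6 that array still lay on the same side of every B6-M- array as the other Cre-Mlo arrays.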

How the results depend on the processing

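The replicate numbers do not pair the arrays: deviations of same-numbered arrays correlated at -0.051, 0.101 and -0.071, and a replicate block lowered the calls to 264 (107 higher, 157 lower). The methods' t-test at p under 0.01, 2-fold and 200 units gave 531 (272 higher, 259 lower), and after Benjamini-Hochberg at the same fold and difference 391 (212 and 179). Without any 1 array there were 1109 to 1366 calls, 542 to 683 higher (lowest without Cre-Mlo replicate 2) and 550 to 714 lower (lowest without B6-M- replicate 2). Other settings stayed within 1.5 times.

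Of 112 called probe sets described above, 87 were called in every fit without 1 array and 48 with the block. Among genes not called, Cd79a (-0.28 to 0.01), Cd74 (-0.20 to 0.07) and the second Ighm probe set (-0.10 to 0.03; 0.02 with the block) changed sign without 1 array. Intensities near 20 units and the absence of detection p-values limit dim genes. Gene list counts above 0 that moved by over 1.5 times without 1 array are given beside them, lists with none in a direction gained at most 1, T cell markers had 2 higher without B6-M- replicate 1, and the cause was not tested.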
